A study of Homo sapiens with 6 samples.

Results

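Accessible sites that were called in 1 ATAC-seq library and in none of the other 5 were described in H1 human pluripotent stem cells. H1 is an established human embryonic stem cell line, grown here in mTeSR1 medium on Matrigel. Cells received lentiviral short hairpin RNAs and were selected with puromycin, and all 6 libraries share this treatment. The groups were shHNRNPU #1 (2 libraries, repeats 1 and 2) and shHNRNPU #2 (2 libraries), which target HNRNPU, and shLUC (2 libraries), whose target the labels give as LUC. The labels state neither how long the hairpins acted nor whether the repeats came from separate cultures, so p-values measure the spread between these libraries, which may be technical. No read counts are used here. The sequencing depth is therefore unknown, absence of a summit means only that no peak was called there, and the level of HNRNPU itself was not measured.

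The sites were chosen from the deposited lists of summits, the positions of highest signal in the peaks of each library. Summits of all 6 lists, 356720 in total, were pooled and taken in the order of their score percentile within their own list. The score is the −log10 of a peak's q-value, so a higher score means a peak less likely to be background in its own library. Each summit taken became the centre of a locus and absorbed the summits within 250 bp, and a library was counted as holding a locus where one of its summits lay at most 250 bp from the centre. Of 123131 loci, 46814 (38.0%) were held by 1 library, and these are called single-library loci below. Loci held by 2, 3, 4, 5 and 6 libraries numbered 18277, 12401, 10105, 10015 and 25519. Because presence in the lists was the criterion of choice, the counts and scores of the single-library loci are given as a description, without a test. A library of either shHNRNPU hairpin had 3 other shHNRNPU libraries in which its loci could be found, whereas a shLUC library had 1 other shLUC library. In the counts of single-library loci, the hairpin and the number of sister libraries cannot be told apart.

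ATAC-seq reads out where a transposase can reach the DNA, which is mainly at promoters, enhancers and other sites bound by proteins. In pluripotent cells, promoters rich in CpG dinucleotides are open in most cell types, while many enhancers are open only in some. HNRNPU, also called SAF-A, is an abundant nuclear RNA-binding protein that binds chromatin and belongs to the nuclear matrix. The labelled cell type was checked on its marker genes. All 9 pluripotency markers, among them POU5F1, SOX2 and NANOG, had a locus within 2 kb of a gene end in all 6 libraries. So had 11 of 12 markers of other lineages, for example PAX6, SOX17 and COL1A1. GATA4 had one at its ends in 1 library, but 4 loci of all 6 libraries lay in the gene or within 2 kb of it. Summits at gene ends thus do not separate pluripotent from other cells in these lists.

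Promoter sequences are shown for 6 of the loci, since promoters with a single-library locus differed with the presence of another summit nearby. For each hairpin, the window of 250 bases before to 50 bases after a start site that held the strongest single-library locus is given, once for loci with a summit of another library within 1000 bp and once for loci without one. These 6 were chosen after their values were seen. Sequences are from RefSeq (GRCh38.p14), read 5′ to 3′ on the strand of the gene. Capitals mark matches on either strand to the SP and KLF box GGGCGG, the ETS site CCGGAAG, the NRF1 site GCGCATGC, the CCAAT box ATTGG, the TATA box TATAAA and the octamer ATGCAAAT, which pluripotency factors of the POU family bind.

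The promoters of SLC25A25 (a mitochondrial carrier of ATP-Mg and phosphate; chr9:128067982-128068281, plus strand), LCORL (a transcription factor; chr4:18021826-18022125, minus strand) and LIPT2 (an enzyme of lipoylation; chr11:74493675-74493974, minus strand) had a summit of another library within 1000 bp.
SLC25A25: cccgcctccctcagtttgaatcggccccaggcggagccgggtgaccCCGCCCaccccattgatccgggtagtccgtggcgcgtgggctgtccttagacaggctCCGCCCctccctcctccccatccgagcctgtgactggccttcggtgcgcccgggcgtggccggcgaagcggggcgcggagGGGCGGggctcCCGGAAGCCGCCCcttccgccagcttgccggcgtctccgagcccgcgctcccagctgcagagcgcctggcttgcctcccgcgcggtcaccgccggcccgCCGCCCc
LCORL: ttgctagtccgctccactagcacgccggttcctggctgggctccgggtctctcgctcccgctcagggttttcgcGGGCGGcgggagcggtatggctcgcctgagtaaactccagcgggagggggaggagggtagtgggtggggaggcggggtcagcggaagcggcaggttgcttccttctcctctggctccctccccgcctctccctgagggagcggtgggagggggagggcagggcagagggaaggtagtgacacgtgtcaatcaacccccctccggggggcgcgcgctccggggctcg
LIPT2: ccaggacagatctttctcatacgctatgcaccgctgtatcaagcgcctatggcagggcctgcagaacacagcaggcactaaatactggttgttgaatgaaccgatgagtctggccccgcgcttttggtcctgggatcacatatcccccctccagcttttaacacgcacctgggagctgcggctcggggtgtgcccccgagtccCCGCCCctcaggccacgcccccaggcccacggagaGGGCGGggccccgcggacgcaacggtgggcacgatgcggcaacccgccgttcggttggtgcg

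The promoters of MBNL3 (an RNA-binding regulator of splicing; chrX:132413559-132413858, minus strand), SRARP (chr1:16003986-16004285, plus strand) and DPM3 (a subunit of dolichol-phosphate mannose synthase; chr1:155140482-155140781, minus strand) had none.
MBNL3: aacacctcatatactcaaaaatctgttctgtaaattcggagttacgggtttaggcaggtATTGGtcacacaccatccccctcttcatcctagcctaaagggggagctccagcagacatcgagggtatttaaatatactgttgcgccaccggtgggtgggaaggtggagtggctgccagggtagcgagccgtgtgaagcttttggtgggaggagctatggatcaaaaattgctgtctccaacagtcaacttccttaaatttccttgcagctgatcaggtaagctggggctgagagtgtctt
SRARP: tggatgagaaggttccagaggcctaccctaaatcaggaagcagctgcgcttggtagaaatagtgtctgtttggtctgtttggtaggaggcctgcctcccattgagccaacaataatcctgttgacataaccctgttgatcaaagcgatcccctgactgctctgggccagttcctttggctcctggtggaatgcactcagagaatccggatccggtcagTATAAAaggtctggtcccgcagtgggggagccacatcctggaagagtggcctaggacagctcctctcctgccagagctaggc
DPM3: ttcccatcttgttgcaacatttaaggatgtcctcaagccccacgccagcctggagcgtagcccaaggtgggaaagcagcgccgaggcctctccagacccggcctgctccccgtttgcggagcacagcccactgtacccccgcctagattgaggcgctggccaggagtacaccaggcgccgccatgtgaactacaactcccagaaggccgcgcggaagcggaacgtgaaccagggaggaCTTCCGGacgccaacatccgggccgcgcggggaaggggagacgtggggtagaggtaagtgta

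The first set held 37, 25 and 24 CpG dinucleotides in the windows of SLC25A25, LCORL and LIPT2, with a GC content of 76.3%, 70% and 64.3%. SLC25A25 had 5 matches to the SP and KLF box and 1 to the ETS site, which directly precedes one of these boxes. In the second set, MBNL3 had 7 CpG dinucleotides and 49.3% GC, with 1 CCAAT box, and SRARP had 5 and 54.0%, with a TATA box close to the start. DPM3 was nearer to the first set in its sequence, with 23 CpG dinucleotides, 63.7% GC and an ETS site, although the nearest summit of another library was 4767 bp away. The summit lay 183 bp before the start of SLC25A25 in shHNRNPU #1 repeat 2, 4 bp before that of LCORL in shHNRNPU #2 repeat 2 and 22 bp before that of LIPT2 in shLUC repeat 2. Their scores were 62.6, 43.8 and 32.6. Scores of the second set were 11.4 for MBNL3 (shHNRNPU #1 repeat 2, 92 bp before the start), 8.78 for SRARP (shHNRNPU #2 repeat 1, 41 bp) and 16.5 for DPM3 (shLUC repeat 2, 81 bp).

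Single-library loci were found in every library, and fewest in shHNRNPU #2 repeat 2. They numbered 6976 and 9024 in shHNRNPU #1 repeats 1 and 2, 7246 and 4569 in shHNRNPU #2, and 9601 and 9398 in shLUC. This was 11.6%, 14.0%, 12.1% and 8.54% of the loci of the 4 shHNRNPU libraries and 15.1% and 15% of those of the shLUC libraries, so the shares of the groups did not overlap. They did overlap when loci were rebuilt from shHNRNPU #1 and shLUC alone, which gives each library 1 sister (an alternative added after the data were seen). The shares were then 16.1% and 18.7% against 18.8% and 18.6%. With shHNRNPU #2 and shLUC they were 18.3% and 14% against 20.3% and 20.0%. The library with the fewest single-library loci also had the shortest list, with 52168 summits where the other lists held 58414 to 63519.

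Most single-library loci were weak peaks. Their median score was 3.55, 3.45, 3.29 and 3.35 in the shHNRNPU libraries and 3.14 and 2.92 in the shLUC libraries. Loci that a library shared with at least 1 other had medians of 8.70, 8.70, 7.84, 9.18, 9.07 and 8.39 in the same order. The lowest deposited scores were 1.3 to 1.31 in all lists. On the percentile scale within a list, the median single-library locus stood at 14.8, 15.1, 15.2, 11.8, 14.9 and 15.1, and the median shared locus between 53.7 and 56.8. Between 71.1% and 78.3% of a library's single-library loci lay below the 25th percentile of its list. Only 297 of the 46814 reached the 75th percentile or more, from 34 in shHNRNPU #2 repeat 2 to 59 in shHNRNPU #2 repeat 1. The median percentile over the libraries that held a locus climbed with their number, from 14.9 for 1 library over 24.7, 31.0, 38.2 and 48.2 to 75 for all 6.

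Loci just inside and just outside the distance that defines membership are given for comparison, without a test. Of the single-library loci, 1340 had their nearest summit of another library at 251 to 275 bp. Their median percentile was 19.4, and 24.4% lay at a gene end. Of the 876 loci of 2 libraries whose other summit lay at 226 to 250 bp, 25.3% lay at a gene end. Their median percentile was 27.6, taken from the higher of the 2 summits. It is therefore not on a par with the 19.4 from a single summit.

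Single-library loci lay less often at gene ends than shared loci, and this held in each library. A gene end was either end of one of 20037 protein-coding genes of the RefSeq table, which gives no strand, and a locus counted within 2 kb of it. The share at a gene end was 13.2% (95% Wilson interval 12.5 to 14.1) and 10.8% (10.2 to 11.5) in shHNRNPU #1 repeats 1 and 2. It was 12% (11.2 to 12.7) and 15.5% (14.4 to 16.5) in shHNRNPU #2, and 9.72% (9.14 to 10.3) and 9.66% (9.08 to 10.3) in shLUC. The intervals cover counting error over loci only. Shared loci of the same libraries stood at 30.5%, 29.4%, 30.4%, 32.3%, 29.3% and 29.9%. The difference was -18.5 ± 1.32 percentage points (SD, n = 6 libraries), in the same direction in all 6 (exact sign-flip permutation test, two-sided, p = 0.0312, the smallest that 6 libraries allow, Benjamini-Hochberg adjusted p = 0.0312 over 3 tests). Shared loci are common to several libraries, so the 6 differences are not independent. Much of the difference went with the score: when loci were compared within 10 classes of equal width in score percentile, it was -3.83 points, still in the same direction (exact p = 0.0312).

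**Figure D1:**
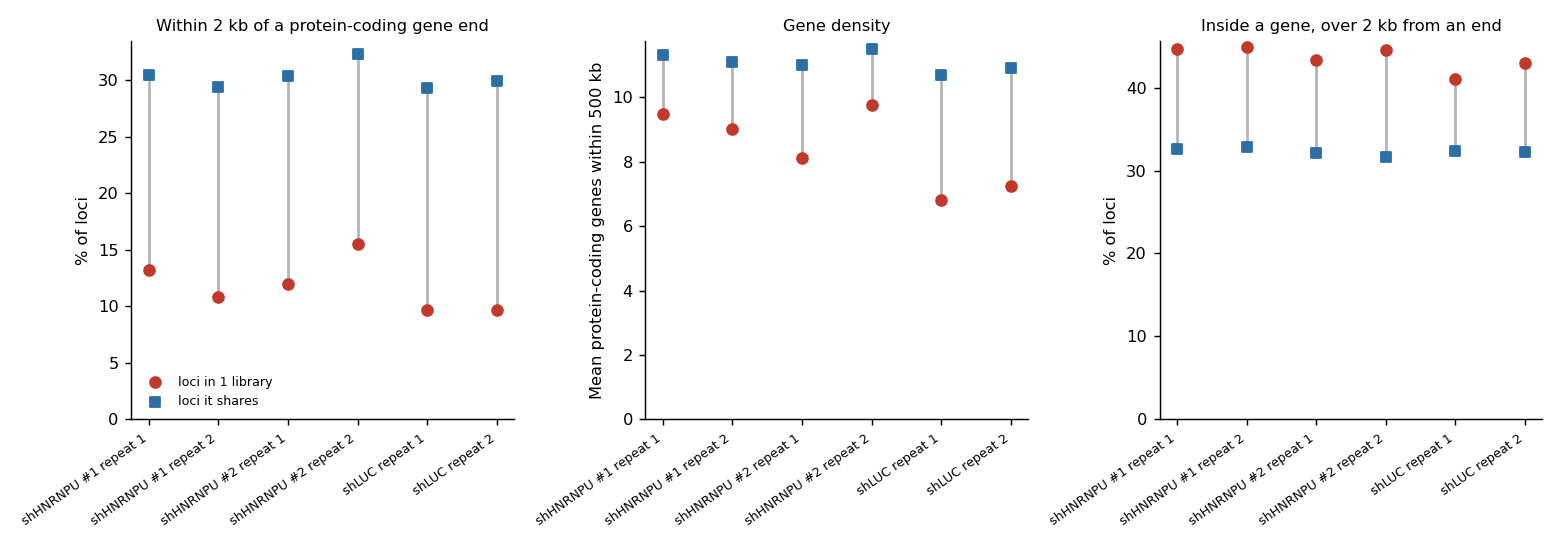
Each panel gives, for the 6 libraries, the loci held by that library alone (circles) and the loci it shared (squares): the percentage within 2 kb of a protein-coding gene end, the mean number of protein-coding genes within 500 kb, and the percentage inside a protein-coding gene further from its ends. Circles lie below squares in the first 2 panels (9.66% to 15.5% against 29.3% to 32.3%, and 6.82 to 9.75 against 10.7 to 11.5 genes) and above them in the last (41.0% to 44.9% against 31.6% to 32.8%).

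The surroundings of single-library loci held fewer genes. The mean number of protein-coding genes with a midpoint within 500 kb was 9.48, 9.01, 8.11 and 9.75 in the shHNRNPU libraries and 6.82 and 7.25 in the shLUC libraries, against 11.3, 11.1, 11, 11.5, 10.7 and 10.9 for shared loci. The difference was -2.67 ± 0.918 genes (SD, n = 6; exact sign-flip permutation test, p = 0.0312, adjusted p = 0.0312). Loci without any protein-coding gene in that window made up 3.68% to 6.69% of the single-library loci with shHNRNPU and 10.1% and 8.77% with shLUC, against 3.65% to 4.76% of shared loci. In turn, single-library loci were more often inside a protein-coding gene but over 2 kb from its ends, with 44.6%, 44.9%, 43.3%, 44.5%, 41.0% and 43.0%. For shared loci this share was 31.6% to 32.8%, a difference of 11.3 ± 1.5 points (SD, n = 6; exact p = 0.0312, adjusted p = 0.0312). Part of both differences went with the score. Within the 10 classes of score percentile they kept their direction but were smaller, at -1.25 genes in density and 3.37 points in gene bodies. Outside coding genes and not at or in a gene of another biotype were 26.3% to 33.7% of the single-library loci and 23% to 24.6% of the shared loci.

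The shift away from gene ends concerned gene starts. With the strand taken from the RefSeq promoter windows, 7.35% to 12% of a library's single-library loci lay within 2 kb of a start, against 25.5% to 28.2% of shared loci. The 3′ ends of genes, counted where no start was within 2 kb, held 1.88% to 3.29% and 2.49% to 2.73%. The windows cover 15843 of the protein-coding genes, so these shares miss the starts of the others.

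Position changed step by step with the number of libraries that held a locus. The share at a gene end was 11.4%, 16.2%, 18.9%, 21.1% and 24.5% for 1 to 5 libraries and 40.7% for 6. The mean gene density went from 8.21 to 12.3 genes, and the share inside genes from 43.4% to 26.9%. The largest step in the share at gene ends lay between 5 and 6 libraries, and the next largest between 1 and 2. Loci of 1 library stood at the low end of the series.

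**Figure D2:**
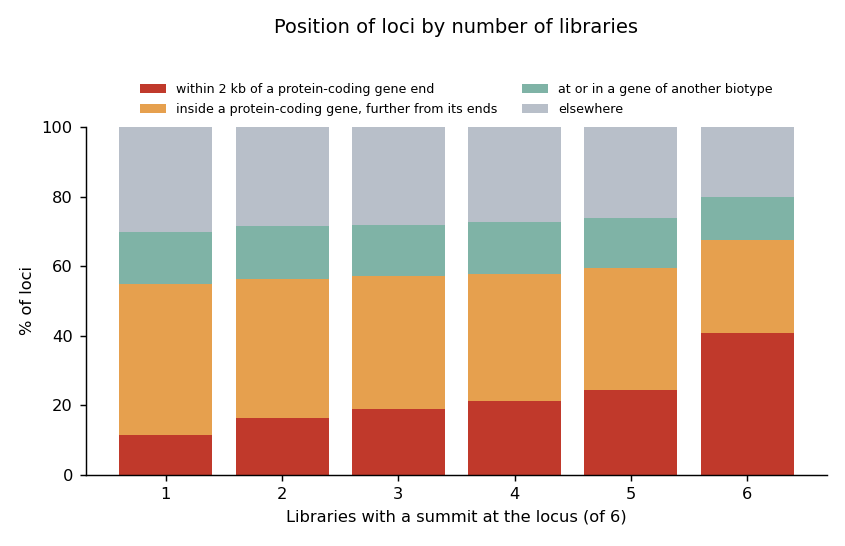
Stacked bars give the percentage of loci in each of 4 positions (vertical axis) for loci held by 1 to 6 libraries (horizontal axis). The part within 2 kb of a protein-coding gene end is 11.4% for 1 library and 40.7% for 6, and the part inside genes further from the ends is 43.4% and 26.9%.

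The strongest single-library loci looked different from the rest: they lay more often at gene ends and beside loci that the other libraries shared. By percentile of the score, 9.84% of the loci below the 25th percentile were at a gene end, 12.6% of those from 25 to 50, 23.8% from 50 to 75, 63.9% of 244 loci from 75 to 90 and 79.2% of 53 loci at 90 or more. The median distance to the nearest summit of another library was 6687, 5926, 2785, 377 and 396 bp over the same classes. Of the 297 loci at the 75th percentile or more, 269 (90.6%) had another locus, held by at least 2 other libraries, between 250 and 1000 bp away. Below the 25th percentile this was 4628 of 34236 (13.5%). Per library, the difference between the classes was 76.5 ± 11 percentage points (SD, n = 6), from 56.2 to 87.6. Scores and the summits of other libraries both entered the choice of these loci, so this is given without a test. In neighbours, shared loci went the other way, since 10.4% to 14.2% of those at the 75th percentile or more and 18.9% to 25.1% of those below the 25th had one. At gene ends shared loci rose as well. Below the 25th percentile 13.4% to 17.1% of them lay there, and 50.6% to 61% at the 75th or more. The rise at gene ends was thus not particular to single-library loci.

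The neighbours of the strong loci were mostly called everywhere else. In 240 of the 269 (89.2%) the neighbour was held by all 5 other libraries, at a median distance of 410 bp. The library with the strong locus itself had a summit at the neighbour in 20 of the 269 (7.43%), and another summit of its own anywhere within 1000 bp in 27 (10.0%). In the remaining 242 its only summit within that distance was the one no other library had. Weak loci with a neighbour were not of this kind. Of the 4628, the library had another summit of its own within 1000 bp in 54.4%, and the neighbour was held by all 5 others in 35.4%. The shLUC libraries stood lower than the shHNRNPU libraries in the share of strong loci with a neighbour. It was 98.2%, 100%, 96.6% and 97.1% in the shHNRNPU libraries, and 67.3% (37 of 55) and 86.4% (38 of 44) in the shLUC libraries.

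**Figure D3:**
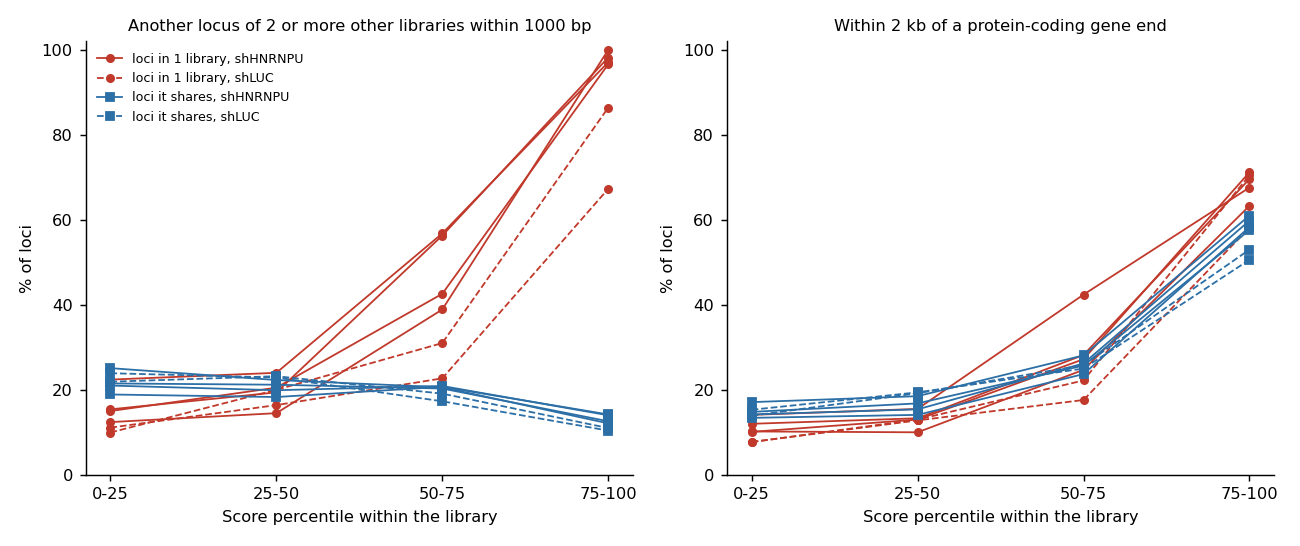
Lines give, for each library, the percentage of loci (vertical axes) with another locus of at least 2 other libraries within 1000 bp, and the percentage within 2 kb of a protein-coding gene end, over 4 classes of score percentile (horizontal axes). Single-library loci (circles) reach 67.3% to 100% with a neighbour in the highest class, where shared loci (squares) stand at 10.4% to 14.2%, while the shares at gene ends in that class are 58.2% to 71.2% and 50.6% to 61%.

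The genes at the strongest loci were of varied function. Examples are taken from the 3 single-library loci of highest score in each library. In shHNRNPU #1 repeat 1, a summit of score 59.0 lay at chr1:173868456, 374 bp from an end of ZBTB37 (a zinc finger protein) and beside GAS5, a host gene of small nucleolar RNAs. The 5 other libraries had theirs 322 bp away, with scores of 57.4 to 66.1. In shHNRNPU #1 repeat 2, a summit of score 62.6 at chr9:128068049 in the SLC25A25 promoter printed above lay 717 bp from a locus of all 6 libraries with scores of 45.2 to 66.3, so this library had both. In the same library, the summit at chr6:41072583 (score 58.1) was 391 bp from an end of NFYA, a subunit of the factor that binds CCAAT boxes, and inside the promoter window of OARD1. The locus of the other 5 was 352 bp away, with scores of 32.1 to 60.7.

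The shHNRNPU #2 libraries gave the same picture. The strongest locus of repeat 1 lay at chr2:239401470, 179 bp from an end of HDAC4, a class IIa histone deacetylase, with a score of 41.5, and 351 bp from the locus of the 5 others (37.6 to 59.8). That of repeat 2 lay at chr2:44168005, 870 bp from an end of PPM1B, a serine and threonine phosphatase, with a score of 51.4 and the locus of the others 543 bp away (40.2 to 48.7). In shLUC repeat 1 it was at chr17:41689341 in EIF1, a factor in start codon selection, with a score of 45.2 and the others at 598 bp (47.5 to 62.9). In shLUC repeat 2 it was the summit in the LIPT2 promoter at chr11:74493746, with a score of 32.6 and the others at 467 bp (29.3 to 60.5). Scores of different libraries are not on one scale, so they were set beside each other as percentiles within each list. On that scale the locus stood within the range of its neighbour at ZBTB37, SLC25A25, NFYA, HDAC4, PPM1B and LIPT2, and below it at EIF1 (96.4 against 97.2 to 98.5). Over the 18 strongest loci, 3 per library, 17 were at a gene end and 17 had a neighbour held by at least 5 libraries. The exception in both was chr9:63817944 in shHNRNPU #1 repeat 1 (score 44.8), far from any protein-coding gene, with a neighbour of 4 libraries.

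Strong single-library loci far from any other summit were few, and most were in the shLUC libraries. With no summit of another library within 1000 bp and a percentile of 60 or more, a limit set after the values were seen, there were 11, 28, 26 and 13 in the shHNRNPU libraries and 159 and 95 in the shLUC libraries, 254 of 332 in all. Without a limit of percentile, the isolated loci numbered 4951, 6792, 5151 and 2926 against 7687 and 7525, so the groups did not overlap there either. As a share of a library's single-library loci, those at 60 or more were 0.158%, 0.310%, 0.359% and 0.285% against 1.66% and 1.01%. At a percentile of 70 or more there were 1, 4, 4 and 2 against 46 and 26. In the same rebuild from 4 libraries, with 1 sister library each, isolated loci of any percentile overlapped between shHNRNPU #1 (6879 and 9176) and shLUC (9355 and 9038). Those of shHNRNPU #2 (8029 and 5003) and shLUC (10186 and 9917) did not overlap. At a percentile of 60 or more, shHNRNPU #1 had 55 and 78 in the rebuild against 265 and 144 in shLUC. For shHNRNPU #2 there were 93 and 42 against 291 and 175. At that limit the groups did not overlap in either set.

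These isolated loci lay mostly away from gene ends in both groups. In shLUC repeat 1, 9 of 159 (5.66%) were at a gene end and 62 were inside a protein-coding gene, and the median number of protein-coding genes within 500 kb was 3. In shLUC repeat 2, 5 of 95 (5.26%) were at a gene end and 47 inside a gene, with a median of 6 genes. In the shHNRNPU libraries, 2 of 11, 2 of 28, 2 of 26 and 1 of 13 were at a gene end, with medians of 8, 6.5, 6.5 and 6 genes. The strongest was at chr7:35917137, 1374 bp from an end of SEPTIN7, a cytoskeletal GTPase, in shLUC repeat 1. Its score was 25.4 and the nearest summit of another library was 8434 bp away. In shLUC repeat 2, the strongest 2 were at chr4:26682660 inside TBC1D19 (score 17.0, 9579 bp) and at chr1:155140612 in the DPM3 promoter printed above (score 16.5). In the shHNRNPU libraries, the list included chr1:56494505, 256 bp from an end of PLPP3, a lipid phosphatase (shHNRNPU #1 repeat 2, score 15.2, 16634 bp). It further included chr14:63820885 inside SYNE2, a protein of the nuclear envelope (score 14.2, 17673 bp), and chr16:71028262 inside HYDIN, a gene for motile cilia (shHNRNPU #2 repeat 2, score 17.5, 186540 bp). The strongest of shHNRNPU #1 repeat 1, at chr21:8214749 with a score of 18.9, lay in the ribosomal RNA gene RNA45SN2. This gene has near-identical copies, so the position of its reads is uncertain.

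Single-library loci of the shHNRNPU libraries lay nearer to genes than those of the shLUC libraries, a difference that the design is too small to test at 0.05. At gene ends were 12.9% ± 1.98 (SD, n = 4) for the shHNRNPU hairpins and 9.69% ± 0.0397 (SD, n = 2) for shLUC, a difference of 3.18 points. The mean gene density was 9.09 ± 0.722 and 7.03 ± 0.302 genes, a difference of 2.05. In both measures each of the 4 shHNRNPU libraries stood above both shLUC libraries. The groups overlapped, however, in the share within 2 kb of a gene start (7.38% to 12% against 7.35% and 7.62%). They did not overlap at 3′ ends without a start within 2 kb (2.68% to 3.29% against 1.88% and 2.12%). The difference at gene ends is therefore not shown to be one of promoters. Subtracting the value of each library's own shared loci left a difference of 2.17 points in the share at gene ends, which was 0.981 in lists of one size (exact permutation p = 0.400) and 0.314 within 500 bp of a gene end (exact permutation p = 0.267), and the groups overlapped in both. Each of the 3 tests gave p = 0.133 (exact permutation over the 15 choices of 2 libraries, two-sided; adjusted p = 0.133), the smallest possible. With 1 sister library for each library, the difference at gene ends was 2.38 points for shHNRNPU #1 and 4.04 points for shHNRNPU #2 against shLUC. Counted within 500 bp of a gene end, however, the difference over all 6 libraries fell to 0.947 points, and in lists cut to one size it was 1.69 points.

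The same direction was seen across chromosomes. The share of a library's single-library loci that lay on a chromosome was, for each shHNRNPU library, above that of both shLUC libraries on 6 of 24 chromosomes (25.0%), namely 15, 16, 17, 19, 20 and 22. It was lower on 8 (33.3%), namely 3, 4, 5, 6, 7, 13, 14 and X. On chromosome 17 the shares were 4.29%, 3.68%, 3.41% and 4.46% with shHNRNPU and 2.25% and 2.39% with shLUC. On chromosome 19, which is rich in genes for its size, they were 2.88%, 2.79%, 1.96% and 2.60% against 1.28% and 1.5%, and on chromosome 22 they were 2.29%, 1.87%, 1.45% and 2.52% against 0.875% and 1.00%. On chromosome 4 the order was turned, with 5.10%, 5.56%, 6.61% and 5.23% against 7.27% and 6.93%. Shares on chromosomes add up to a whole, so they are not independent of each other. The share of all loci of a library on each chromosome is not given here. A shift of the whole list is therefore not separated from one of the single-library loci.

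**Figure D4:**
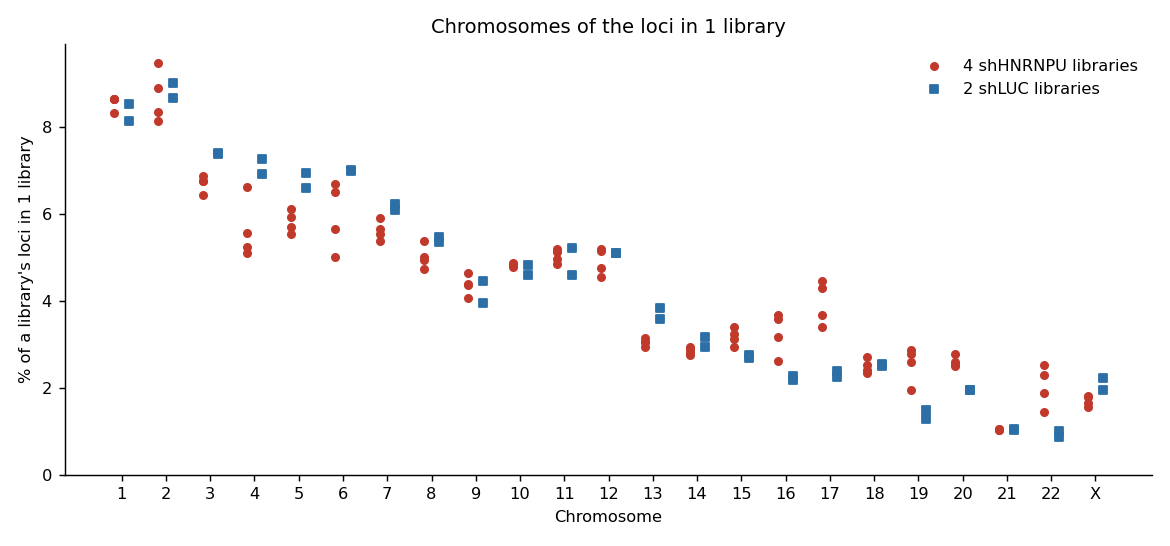
Points give the percentage of each library's single-library loci (vertical axis) on each chromosome (horizontal axis, Y left out), with circles for the 4 shHNRNPU libraries and squares for the 2 shLUC libraries. Circles lie above squares on chromosomes 15, 16, 17, 19, 20 and 22 and below them on 3, 4, 5, 6, 7, 13, 14 and X.

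Counted against all loci of the library on the same chromosome, the picture followed the lower number of single-library loci with shHNRNPU. This rate was lower in all 4 shHNRNPU libraries on 17 of 24 chromosomes (70.8%) and higher on 1 (4.17%), chromosome 22. There 14.1%, 14.5%, 10.4% and 11.1% of the loci of the shHNRNPU libraries were single-library loci, against 8.92% and 9.85% with shLUC. On chromosome 4 it was 12.4%, 15.4%, 15.2% and 9.19% against 19.4% and 19.1%.

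Single-library loci of different shHNRNPU libraries were also more often close to each other. Pairs of such loci from 2 libraries within 5000 bp numbered 7.43 to 10.4 per 1000000 possible pairs in the 6 combinations of shHNRNPU libraries. In the 8 combinations of a shHNRNPU with a shLUC library they numbered 4.89 to 5.61, and in the 1 combination of shLUC libraries 4.58. Combinations share libraries, so these are given without a test. No such rate was computed for shared loci. The groups also differ in the gene density around these loci and in the number of sister libraries, and neither was taken into account.

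Of the single-library loci, 23906 lay inside a protein-coding gene, and 8535 genes held at least 1. The genes with the most were long ones. DLG2, a scaffold protein of the postsynaptic density that spans chr11:83455012-85628373, held 39, of which 4, 8, 7 and 2 came from the shHNRNPU libraries and 13 and 5 from the shLUC libraries. PTPRN2, a receptor-type phosphatase of secretory vesicles, ANKS1B, a postsynaptic protein, and PTPRD, a receptor-type phosphatase in synapse formation, held 35 each. DLGAP2, which associates with such scaffolds, held 34, and OPCML and NTM, cell adhesion proteins of the same family, held 32 and 31. AGAP1, TENM2 and PDE4D held 30 each. All of these had single-library loci from all 6 libraries. Among genes of at least 200 kb, the highest numbers per megabase were in TSPEAR (74.9), CMIP (71.2), the Hedgehog pathway factor GLI2 (66.2), the transcriptional coregulator ZMIZ1 (64.6) and STOX2 (62.1), against 19 over all protein-coding genes. In these 5 genes most came from the shHNRNPU libraries, which are 4 of the 6: CMIP had 5, 3, 3 and 7 against 0 and 1 with shLUC, ZMIZ1 had 2, 3, 5 and 4 against 2 and 0, and GLI2 had 3, 4, 1 and 6 against 1 and 2.

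Long neuronal adhesion and synapse genes, a list of 28 with a median length of 1401 kb, had fewer single-library loci per length than the average gene, but their part was larger in the shLUC libraries. They held 543 in their bodies, 12.8 per megabase, from 6 in the dystrophin gene DMD and in CSMD2 to 39 in DLG2. Of their loci, 42.8% were single-library loci, against 39.2% over all protein-coding genes. Of a library's single-library loci, 1.08%, 0.964%, 1.05% and 0.678% lay in these genes with shHNRNPU and 1.42% and 1.47% with shLUC. Of the shared loci it was 0.828%, 0.866%, 0.815% and 0.717% against 0.95% and 0.909%, so the groups did not overlap in either kind of locus. The 2 shLUC libraries had 274 of the 543 and the 4 shHNRNPU libraries 269, and in 23 of the 28 genes the mean per library was higher with shLUC. The same was true of 54.6% of the 1064 protein-coding genes with at least 6 single-library loci. Over all protein-coding genes, the shHNRNPU libraries had 3874, 4813, 3819 and 2632 single-library loci in gene bodies and the shLUC libraries 4689 and 4806. Of the 7 gene lists examined, this was the only one (14.3%) in which the share of both shLUC libraries was above that of all 4 shHNRNPU libraries. LSAMP, a neuronal adhesion protein, had 0, 2, 2 and 0 with shHNRNPU and 6 and 6 with shLUC. RBFOX1, a neuronal splicing factor, was an exception, with 9, 3, 1 and 1 against 5 and 6.

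Genes of cell identity held few single-library loci each, but more per length than the average gene. With 2 kb on either side, 14 of 18 pluripotency genes, 9 of 14 neuroectoderm genes, 9 of 13 endoderm genes and 7 of 13 mesoderm genes had at least 1, against 48.3% of all protein-coding genes. Of the pluripotency genes, NANOG had 2 and POU5F1 1, each beside 1 locus of all 6 libraries, while SOX2, a partner of POU5F1, had 1 locus of all 6 and no single-library locus. LIN28A and LIN28B, inhibitors of let-7 maturation, had 3 each. In the bodies of the neuroectoderm genes, 12.2% of the loci were single-library loci, in those of the mesoderm genes 21.9%, and in those of the pluripotency and endoderm genes 30.4% and 30.6%. Over all protein-coding genes it was 39.2%. The values of these lists rest on 5, 7, 14 and 19 loci. In the endoderm list, GATA4 held 6 of the 19. Of 15 housekeeping genes, 8 had a single-library locus and 14 a locus of all 6 libraries, against 48.3% and 66.6% of all protein-coding genes.

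Of 17 genes for the nuclear matrix and genome organisation, all had a locus of all 6 libraries and 15 had a single-library locus (66.6% and 48.3% of all protein-coding genes). These genes are longer, with a median of 57.5 kb against 24.1 kb over all protein-coding genes. Per length they were close to the average, with 21.3 single-library loci per megabase against 19. Of the loci in their bodies, 43.7% were single-library loci, against 39.2%. HNRNPU itself had 1 within 2 kb of its ends, beside 2 loci of all 6 libraries. SATB1, which binds matrix attachment regions, and MATR3, a nuclear matrix protein, had 4 each, and CTCF and the lamin gene LMNA had 3 each. The cohesin genes SMC1A and STAG2 had none. By library, the bodies of the list held 6, 5, 6 and 4 with shHNRNPU and 3 and 7 with shLUC, so the groups overlapped.

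Promoter windows with a single-library locus differed with the presence of a nearby summit of another library, as in most of the sequences printed above. A gene can have several windows, which may overlap. Of 35116 windows of 300 bases, on 23 chromosomes, with none used here from chromosome 8, 511 held a single-library locus with a summit of another library within 1000 bp and 374 one without. The median number of CpG dinucleotides was 25 (quartiles 13 and 35) in the first kind and 6 (3 and 12) in the second. Windows of loci in 2 to 5 libraries had 26 and those of loci in all 6 had 28, while windows with no locus had 5. The median GC content was 67.3% and 54.3% in the 2 kinds, 67.3% and 66.7% in windows of shared loci and 51.0% in windows with no locus.

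Matches to motifs differed from motif to motif. The SP and KLF box was in 65.6% of the windows of the first kind and in 31.8% of the second, against 68.2% and 76.9% for loci of 2 to 5 and of 6 libraries, 27.2% for windows with no locus and 45.0% of all windows. The TATA box was in 3.91% and 12.3%, against 11.5% of all windows. The ETS site was in 10.6% and 7.22%, about as in all windows (10.3%), where loci of 6 libraries had 22.6%. The CCAAT box was in 22.3% of the first kind and 35.3% of the second, against 34.6% of all windows and 41.7% of those with a locus of 6 libraries. The NRF1 site was in 2.15% and 0.267% (3.05% of all windows) and the octamer in 1.37% and 1.60% (1.77%). The GGGCGG box holds CpG itself, so its share is not independent of the CpG count. The window share differed between the kinds too: with a summit of another library within 1000 bp, 3.46% to 5.56% of a library's single-library loci fell in a promoter window, and without one 0.802% to 1.36%.

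**Figure D5:**
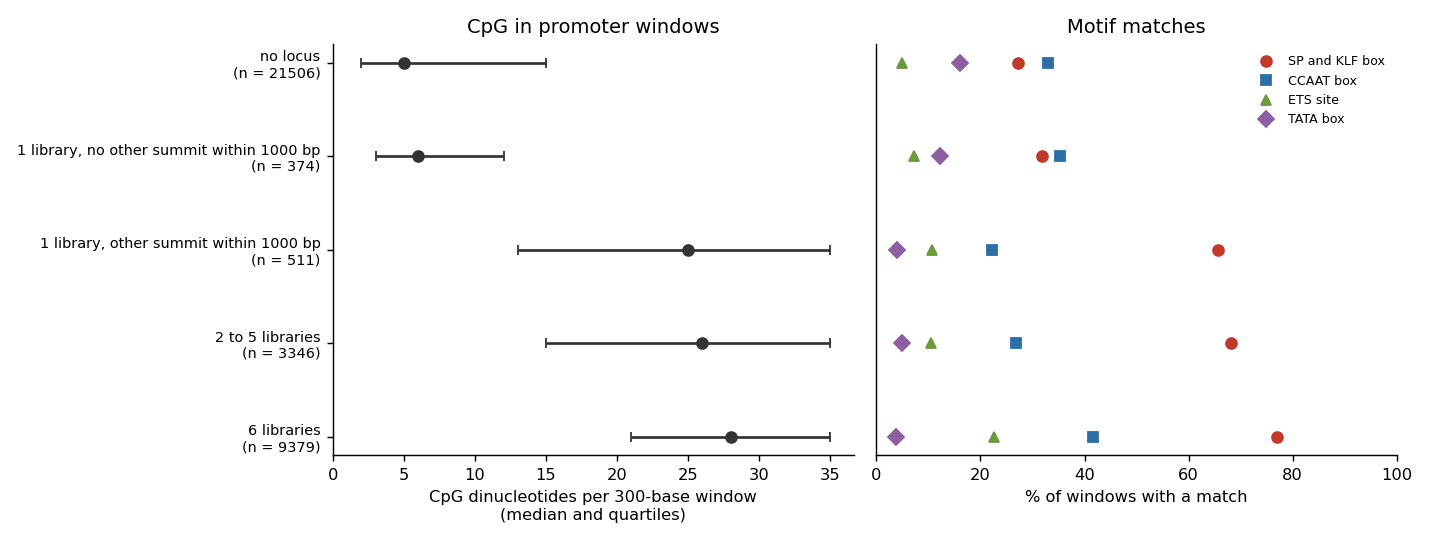
Left, the number of CpG dinucleotides per promoter window (median with quartiles) for 5 classes of windows, by the loci they hold; right, the percentage of windows of each class with a match to 4 motifs. Windows with a single-library locus and no other summit within 1000 bp have a median of 6 CpG dinucleotides, near the 5 of windows with no locus, and those with another summit nearby have 25, near the 28 of windows with a locus in 6 libraries.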

How the data were processed

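ATAC-seq was performed on 6 samples of H1 cells, nuclei of which were tagmented with Tn5. Per the labels, cutadapt, Bowtie2, SAMtools, MACS2 and deepTools were used and the build was hg38; versions, parameters, read filters and any shift of reads are not given in the sources used here. The authors deposited a list of summits per library, called on each library separately, with the −log10 q-value of the peak as a score. Scores depend on the depth of a library, which is unknown, so they were ranked within lists only. An article supplied with the series describes other experiments and served for style alone.

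Loci were built as described above. Positions were read from a RefSeq table and promoter windows of GRCh38.p14. Of 119 listed genes 118 were found, TDGF1 under its current name CRIPTO. The members, gene lists and limits were chosen with earlier results of these data known. Named loci were the 3 strongest of each library and the 2 strongest with no other summit within 1000 bp. Means of libraries were compared with exact permutation tests and p-values adjusted by Benjamini-Hochberg. A test planned for the share beside shared loci was dropped, since the choice of loci used the same values. Locus building and tests were tested on simulated data. Analyses ran in Python 3.11.15 (scipy 1.17.1 for tests, statsmodels 0.14.6 for intervals and adjustment, pandas 2.3.3 and numpy 2.4.6 for tables, matplotlib 3.10.9 for plots).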

Additional observations from a re-analysis of the deposited data

Results flagged for a closer look

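The median score percentile of the single-library loci in shHNRNPU #2 repeat 2 was 11.8, apart from the other shHNRNPU libraries, which stood at 14.8, 15.1 and 15.2. The gap to the nearest of them was 0.885 of the range of the 4 libraries. It was 1 of 18 measures examined in this way, and chance alone sets apart about 1 group in 20. The same library had the shortest list of summits (52168) and the fewest single-library loci (4569). Cutting all lists to that size left the direction of each comparison between the groups as it was.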

How the results depend on the processing

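The number of single-library loci depended on how loci were defined. It was 46814 with a distance of 250 bp, 72357 with 100 bp and 39686 with 500 bp, and 19851 when only summits with a score of at least 5 were used. Of 116 recomputed values none changed direction. Leaving out a library gave 43832 to 46312 loci, a difference at gene ends of -18.5 to -18.0 points, in gene density of -2.72 to -2.56 genes, in gene bodies of 10.8 to 11.6 points and in the share beside a shared locus of 72.8 to 77.6 points. With 5 libraries the smallest possible p of the differences at gene ends, in density and in gene bodies is 0.0625, so they could not pass 0.05. The share beside a shared locus, which has no test, differed by 56.9 points with neighbours within 500 bp. The differences between shHNRNPU and shLUC could not pass it under any alternative. Leaving out a library, they ranged from 2.46 to 3.99 points at gene ends, from 1.82 to 2.27 genes in density and from 1.93 to 3.25 points relative to shared loci. The last was smaller in lists of one size (0.981 points) and with a gene-end distance of 500 bp (0.314 points). With a score of at least 5 the difference at gene ends was 4.32 points, but the groups overlapped (exact p = 0.267). The cause was not tested.

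The labels number the repeats. Over the 25519 loci of all libraries, differences in score percentile between repeats 1 and 2 correlated at -0.0438 to 0.00125 between hairpins. No common shift of the repeats was thus seen at these loci. Single-library loci cannot be compared in this way, and whether repeats of one number were handled together was not tested. With the replicate block, the group differences of 3.18 points, 2.05 genes and 2.17 points had an exact p of 0.222, the smallest possible.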
